A study of Mus musculus with 78 samples.

Results

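The transcripts described here encode the subunits of the mitochondrial respiratory chain and of ATP synthase in mouse lung. A gene was taken as a member when its symbol began with Ndufv, Ndufs, Ndufc, Ndufb or Ndufa (complex I), was one of Sdha to Sdhd (complex II), or began with Uqcr (complex III), Cox4i or Cox5 to Cox8 (complex IV), or Atp5 (complex V). Assembly factors were left out. This rule used names and no measured values. The complex was also taken from the name alone, so that Ndufa4 and Ndufa4l2 were counted with complex I. The rule took 81 of the 18820 genes that the array annotation named by 1 symbol. By name, 36 were of complex I, 4 of complex II, 7 of complex III, 17 of complex IV and 17 of complex V. They were covered by 113 probe sets, and each of the 23 genes with more than 1 was represented by its brightest. Cox7c, Ndufa13, Uqcrc2 and the pseudogene Ndufs5-ps were left out because their probe sets carried several symbols.

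Complexes I and II take electrons from NADH and succinate and pass them through ubiquinone to complex III, from which cytochrome c carries them to complex IV, where oxygen is reduced. Complexes I, III and IV pump protons out of the matrix, and ATP synthase, complex V, lets them return and makes ATP. Most subunits are encoded in the nucleus, and several subunits of complex IV exist as a general form and a form typical of heart, skeletal muscle or brown fat. Of the cells of the lung, alveolar type 2 cells, which make surfactant, are known for their many mitochondria.

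Male C57BL/6 J mice, young adults with no engineered allele that were fed only at night, were left to sleep from lights on or were kept awake by gentle handling. Lungs were taken after 3, 6, 9 or 12 h, and those of a baseline group at lights on. RNA of 1 mouse was hybridised to 1 Affymetrix Mouse Gene 1.0 ST array. There were 9 baseline mice, 9, 7, 9 and 9 sleeping mice (SS) and 9, 9, 9 and 8 sleep-deprived mice (SD) in order of time, 78 in all. Sleep loss and handling came together in this design. All values are log2 intensities, and the array medians lay between 6.45 and 6.78.

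The lung label was borne out by defining markers. Over the 78 mice, surfactant protein C (Sftpc) lay between 13.08 and 13.37, surfactant protein B (Sftpb) between 12.38 and 12.75, the alveolar type 1 marker Ager between 11.83 and 12.21, and the endothelial cadherin Cdh5 between 11.93 and 12.43. The club cell marker Scgb1a1 ranged more widely, from 11.39 to 13.19. Several markers of neighbouring tissues had ranges wider still. The uncoupling protein of brown fat, Ucp1, ranged from 4.19 to 12.19 and Cidea from 5.04 to 11.06, while the skeletal actin Acta1 ranged from 6.32 to 12.26 and the muscle creatine kinase Ckm from 7.85 to 11.72. The cardiac actin Actc1, with a narrower range than Scgb1a1, lay between 11.68 and 12.82 and the atrial myosin light chain Myl7 between 9.68 and 12.02. In mice, cardiac muscle also lines pulmonary veins inside the lung.

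The order of the arrays and their labels bear on every comparison below. Array numbers in the labels fell into 4 runs, runs 1 and 2 with the 9 and 12 h mice and runs 3 and 4 with the 3 and 6 h mice. All 9 baseline mice were in run 3, so early and late hours, and late hours and baseline, cannot be told apart from the run. By label, no array but 81 stood by number inside a block of another condition. An order of conditions was assumed along the numbers, in which some absent numbers kept a place. It gave 15 arrays a neighbouring condition in place of their label. For these 15 and array 81, 16 in all, the label and the expression profile disagreed. Each array was set against the 9 group means of the other arrays over the 200 probe sets that differed most among groups. Of the 16, 0 lay nearest to the mean of their own label and 15 to that of the group given by the assumed order. Of the other 62, 60 lay nearest to their own label. Groups were used as labelled, and values without the 16 arrays are given where a count of calls changed. A call is a Benjamini-Hochberg adjusted p under 0.01 over all 35556 probe sets. Of these, 12457 carried no symbol, so for some comparisons the count over the 18820 genes is also given.

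The members varied together from mouse to mouse. Their median pairwise correlation over the 78 mice was 0.48, and 2898 of the 3240 pairs were positive. With group means removed the median was 0.50, and without arrays 59 and 76 it was 0.37. These correlations share each mouse's RNA and array. Against the mean of the other members, 30 genes had r over 0.8, among them the complex I subunits Ndufb9 (0.95) and Ndufa10 (0.94), Cox5a of complex IV (0.93), Atp5o of the ATP synthase stalk (0.92) and the muscle and brown fat form Cox7a1 (0.92). Another 11 had r under 0.3. They included Uqcrb (-0.05), the lung form Cox4i2 (-0.05), Ndufb3 (0.11), Cox6c (0.12), Cox7a2l (0.20) and the testis forms Cox8c (-0.16) and Cox7b2 (0.17). The mean log2 intensity of a member over the 78 mice ran from 7.10 (Ndufa5) to 12.07 (Ndufc2) in complex I, 9.71 (Sdhb) to 11.39 (Sdha) in complex II, 7.90 (Uqcrfs1) to 11.33 (Uqcrb) in complex III, 3.41 (Cox7b2) to 12.62 (Cox6c) in complex IV and 7.53 (Atp5k) to 12.61 (Atp5d) in complex V. Intensities of different probe sets rank no transcripts, since each has its own affinity. The median member varied somewhat more than the median gene of the array. The SD over the 78 mice was 0.18 in the median member, against 0.15 in the median gene of the array, and was below 0.2 for 51 members. The 4 with an SD above 0.4 were Cox8b (0.94), Cox7a1 (0.80), Cox6a2 (0.48) and Uqcr10 (0.40), of which the first 3 are the muscle and brown fat forms of complex IV.

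Promoters are printed for 4 members of the results below, as examples with and without the motifs counted after them: Ndufa6 and Sdhd, which fell with deprivation, and the tissue forms Cox7a1 and Cox8b. They are the 250 bases before the RefSeq start on GRCm38.p6, written 5′ to 3′ on the gene's strand, with the motif found in capitals. Ndufa6 (chr15:82354292-82354541, minus strand) holds the NRF-1 letters GCATGCGC, beginning 83 bases before the start. Sdhd (chr9:50603850-50604099, minus strand) holds the ETS letters CCGGAAG read on the other strand, beginning 46 bases before it. Cox8b (chr7:140900447-140900696, minus strand) holds the E-box CAGCTG, beginning 19 bases before it, and in Cox7a1 (chr7:30183921-30184170, plus strand) none of the 4 motifs searched was found.
Ndufa6: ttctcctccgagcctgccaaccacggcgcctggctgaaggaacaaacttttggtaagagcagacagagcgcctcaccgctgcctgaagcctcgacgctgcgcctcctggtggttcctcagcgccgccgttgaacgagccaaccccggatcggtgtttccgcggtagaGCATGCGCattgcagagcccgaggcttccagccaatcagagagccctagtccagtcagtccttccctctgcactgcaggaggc
Sdhd: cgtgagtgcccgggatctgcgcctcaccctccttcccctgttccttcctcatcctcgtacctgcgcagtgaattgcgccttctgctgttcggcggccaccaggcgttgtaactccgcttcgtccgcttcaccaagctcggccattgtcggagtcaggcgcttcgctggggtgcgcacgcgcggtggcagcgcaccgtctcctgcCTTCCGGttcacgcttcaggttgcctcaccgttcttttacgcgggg
Cox7a1: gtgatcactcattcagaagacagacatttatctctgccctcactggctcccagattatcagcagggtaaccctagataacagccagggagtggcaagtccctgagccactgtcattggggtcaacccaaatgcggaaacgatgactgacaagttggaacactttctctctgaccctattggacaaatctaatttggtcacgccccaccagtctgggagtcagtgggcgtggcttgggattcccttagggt
Cox8b: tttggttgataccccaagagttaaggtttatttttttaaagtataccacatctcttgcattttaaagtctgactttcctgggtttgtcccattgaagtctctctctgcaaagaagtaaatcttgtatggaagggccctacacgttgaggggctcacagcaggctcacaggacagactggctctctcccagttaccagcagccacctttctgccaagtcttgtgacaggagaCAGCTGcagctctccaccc

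A promoter was held in the table for 67 of the 81 members and for 27025 genes in all. Searched on both strands from 250 bases before to 50 after the start, GCATGCGC was found in 10 members (14.9%) and in 2.80% of all genes. The ETS letters CCGGAAG were found in 16 members (23.9%) and 9.12% of all genes. The YY1 letters AAGATGGC were found in 9 members (13.4%) and 2.88% of all genes, and the E-box CAGCTG in 6 members (8.96%) and 16.1% of all genes. Of the 67 members, 30 held the NRF-1, ETS or YY1 letters and 37 held none of the 3. None of these motifs is contained in another. The median GC content was 57.3% in the members and 52.7% in all genes. A match of letters is no evidence of binding.

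The level of the members in a mouse was taken as the mean, over the 81 genes, of the log2 difference from each gene's own mean. It was -0.12, -0.02 and 0.13 (lowest, median and highest) in baseline mice. In sleeping mice these values were -0.11, 0.10 and 0.68 at 3 h, -0.10, 0.11 and 0.37 at 6 h, -0.21, -0.06 and 0.15 at 9 h, and -0.16, -0.05 and 0.14 at 12 h. In sleep-deprived mice they were -0.14, -0.07 and 0.15 at 3 h, -0.11, -0.02 and 0.30 at 6 h, -0.20, -0.08 and -0.02 at 9 h, and -0.12, 0.01 and 0.11 at 12 h. Sleeping and deprived mice overlapped at every hour, and the widest group was that of mice asleep for 3 h. Its highest mice were array 76, at 0.68 with 79 of 81 members above their mean, and array 59, at 0.46 with 80 of 81. The other 7 mice of that group had a mean level of 0.012 ± 0.095 (SD, n = 7).

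**Figure D1:**
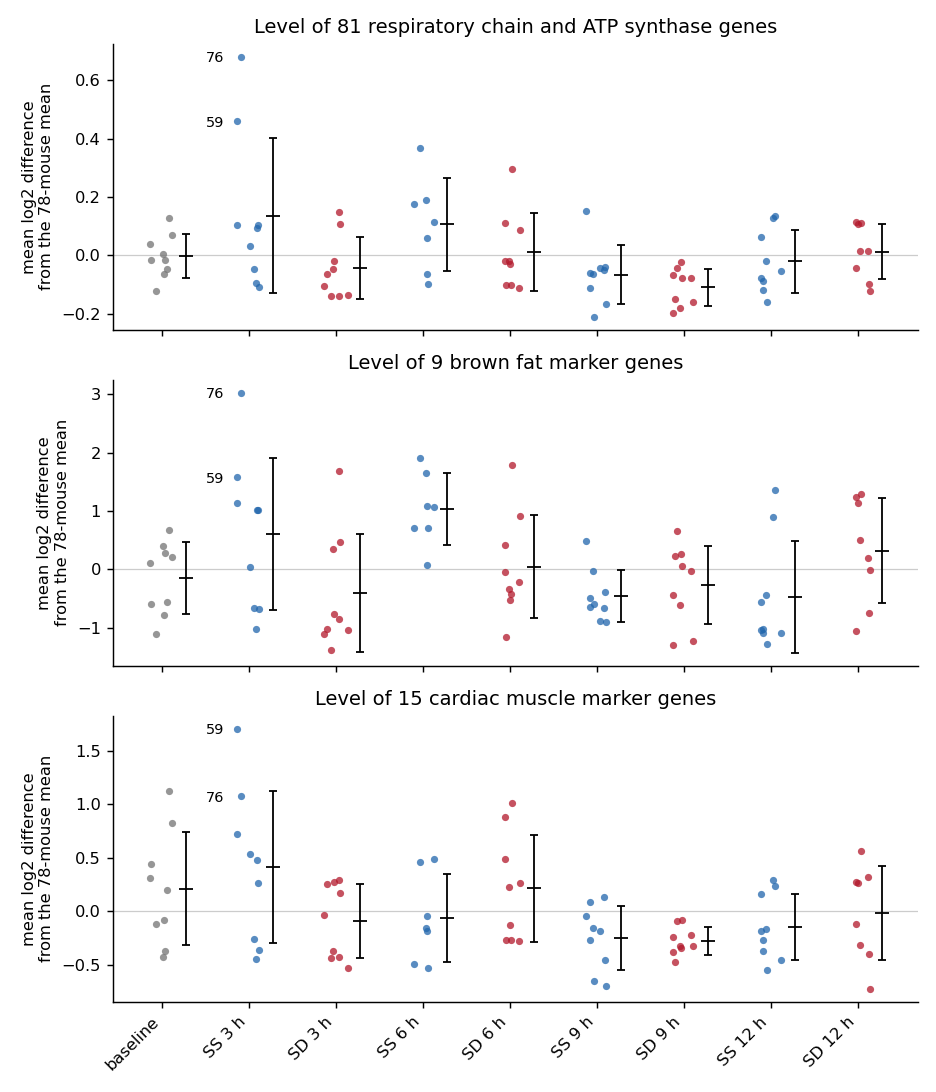
Level of the 81 members (top), of the brown fat markers (middle) and of the cardiac muscle markers (bottom) in each mouse by group, as the mean log2 difference from each gene's mean over 78 mice, with group means ± SD as bars. Arrays 76 and 59, labelled, lie at 0.68 and 0.46 in the top panel and also lie above 1 in both marker panels.

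The same mice stood high in marker lists of other tissues. The list level of brown fat was 3.03 in array 76 and 1.58 in array 59, and that of cardiac muscle 1.07 and 1.70. The next highest mice for the members were array 66 (asleep for 6 h, members 0.37, brown fat 1.92) and array 74 (deprived for 6 h, members 0.30, brown fat 1.80). Across the 78 mice the level of the members correlated with that of the 9 brown fat genes at r = 0.85, which was 0.83 without arrays 59 and 76 and 0.71, 0.83, 0.87 and 0.90 in runs 1 to 4. The r was 0.84 with 7 white fat genes, 0.75 with 15 cardiac genes and 0.50 with 12 skeletal muscle genes. It was 0.91 with enzymes of the tricarboxylic acid cycle, 0.90 with mitochondrial ribosomal proteins and 0.37 with cytosolic ribosomal proteins. Of the lists of lung cells, 7 pericyte genes gave 0.72 (0.70 without arrays 59 and 76), ciliated cells 0.28 and club cells 0.17. With alveolar type 1 and endothelial markers it was -0.59 in both, with alveolar type 2 markers -0.09 and with the array median -0.21. These values describe whole-lung RNA, in which fewer cells of a type and less RNA per cell cannot be told apart, and the part of other tissues in the results below was not tested.

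Over all 4 hours together, the members were slightly lower in the 35 sleep-deprived than in the 34 sleeping mice. The median difference (deprived minus sleeping) was -0.068, 74 of 81 members lay below 0, and the median of all genes was 0.000. Of them 3 passed the test, 3.70% of the 81, against 5.59% of all probe sets. Among the 18820 genes, by brightest probe set, 1512 passed. All the 17 members of complex V and the 4 of complex II lay below 0, as did 32 of 36 of complex I, 6 of 7 of complex III and 15 of 17 of complex IV. Within runs the median was -0.038, 0.038, -0.12 and -0.16 in runs 1 to 4, so that the members were lower in deprivation mainly in the runs with the 3 and 6 h mice. Without arrays 59 and 76 the median was -0.043 with 66 of 81 below 0, and 1 member passed.

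Ndufa2, an accessory subunit of complex I, was the member that rose with deprivation. In baseline mice its lowest, median and highest intensities were 9.84, 10.06 and 10.12. They were 9.82, 10.01 and 10.34 in sleeping against 9.97, 10.17 and 10.39 in deprived mice at 3 h, and 9.81, 9.94 and 10.18 against 10.08, 10.17 and 10.33 at 6 h. The medians of the deprived mice were the higher at both hours, although the groups overlapped. At 9 h the values were 9.75, 9.88 and 10.27 against 9.90, 10.10 and 10.26, and at 12 h 9.74, 9.91 and 10.12 against 9.86, 10.13 and 10.24. The difference over all hours was 0.18 (SE 0.031, limma adjusted p = 4.64e-05), and within runs 1 to 4 it was 0.10, 0.26, 0.20 and 0.13. With all arrays it passed the threshold at no single hour (adjusted p from 0.0738 to 0.186, limma). The call held under every alternative run and with each mouse left out in turn.

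Ndufa6, an accessory subunit of complex I, and Sdhd, which anchors succinate dehydrogenase in the inner membrane and helps bind ubiquinone, were the members that fell. Ndufa6 had lowest, median and highest intensities of 9.75, 9.83 and 10.03 in baseline mice. At 3 h they were 9.76, 9.88 and 10.23 in sleeping and 9.67, 9.73 and 10.07 in deprived mice, and at 6 h 9.75, 9.91 and 10.18 against 9.69, 9.83 and 9.91. The groups overlapped, with the deprived mice lower in their medians. The difference over all hours was -0.12 (SE 0.031, limma adjusted p = 0.00709) for Ndufa6 and -0.16 (SE 0.043, limma adjusted p = 0.00962) for Sdhd. Without the 16 arrays the differences were -0.12 (limma adjusted p = 0.0103) and -0.15 (limma adjusted p = 0.0194), and without arrays 59 and 76 they were -0.10 (limma adjusted p = 0.0178) and -0.13 (limma adjusted p = 0.0239). Both calls also ended with array weights (-0.088 and -0.12) and with median centring (-0.12 and -0.16).

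**Figure D2:**
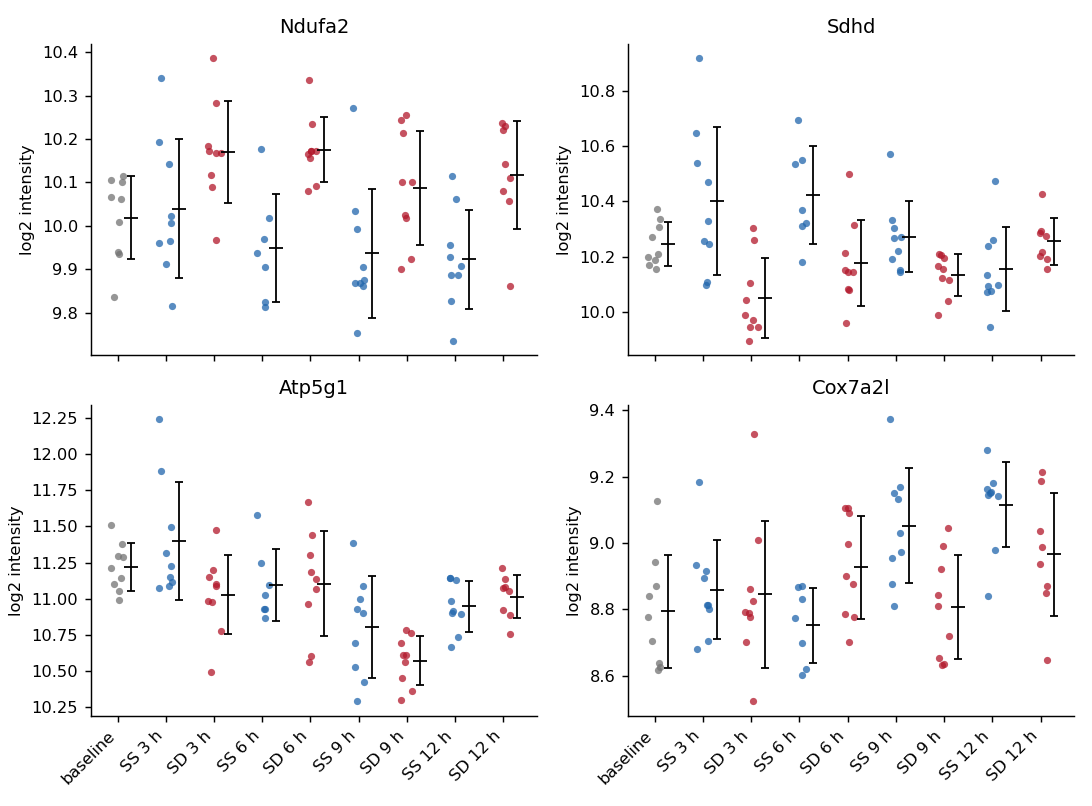
Log2 intensity of Ndufa2, Sdhd, Atp5g1 and Cox7a2l in each mouse by group, with group means ± SD as bars. Ndufa2 lay higher in deprived than in sleeping mice at each hour by its medians (10.17 against 9.94 at 6 h), and the 9 mice deprived for 9 h lay below all baseline mice for Atp5g1.

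The median state difference of the members lay farthest below 0 at 3 h with all arrays, and at 6 h without arrays 59 and 76 (-0.055 at 3 h and -0.10 at 6 h). With all arrays it was -0.16 at 3 h (78 of 81 below 0), -0.10 at 6 h (69 below), -0.016 at 9 h (46 below) and 0.024 at 12 h (58 above). The medians of all genes at these hours were 0.007, 0.017, -0.009 and -0.007. By complex, the 3 h medians were -0.17, -0.23, -0.22, -0.15 and -0.16 for complexes I to V. The state difference itself changed between hours for 0 members by limma's interaction F test, against 0.0562% of all probe sets. In that test 22 of 81 members had an unadjusted p under 0.05, against 19.04% of all genes. The smallest adjusted p of a member in that limma test was that of Ndufc2 (0.0208). Array weights gave 2 members called for this change and leaving out the 16 arrays 1, Ndufc2.

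**Figure D3:**
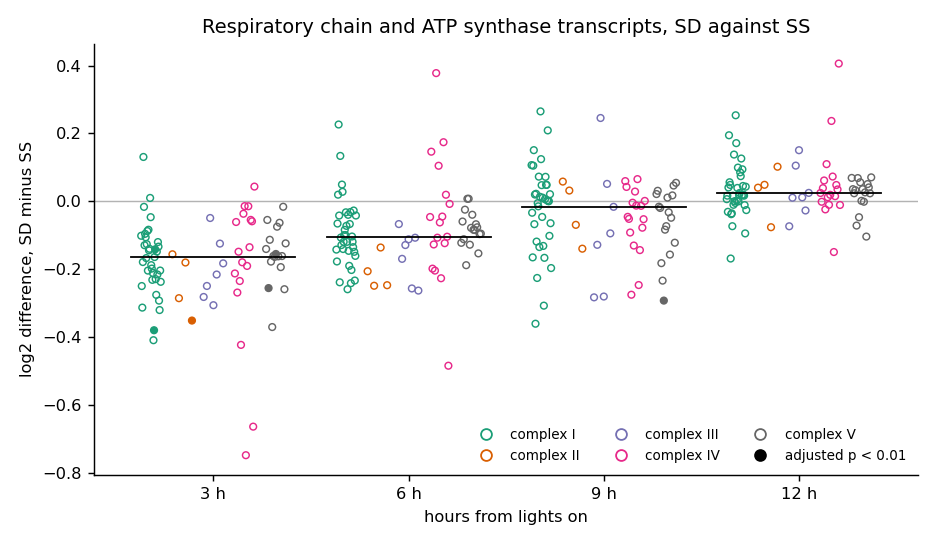
Log2 difference, deprived minus sleeping, of each of the 81 members at 3, 6, 9 and 12 h, coloured by complex, with filled points for adjusted p under 0.01 and a black line for the median. The median goes from -0.16 at 3 h to 0.024 at 12 h, and filled points appear at 3 h (5 members) and 9 h (1 member).

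At 3 h 5 members passed the test, all lower in deprived mice, which is 6.17% of the 81 against 2.35% of all probe sets called lower. Among the 18820 genes, by brightest probe set, 1385 were called at 3 h in either direction, a slightly larger share than of the members. Sdhd lay at 10.10, 10.33 and 10.92 (lowest, median and highest) in sleeping and at 9.90, 9.99 and 10.31 in deprived mice, with 10.15, 10.21 and 10.37 at baseline. Its groups overlapped, with the sleeping median above the highest deprived mouse. The difference was -0.35 (SE 0.072, limma adjusted p = 0.000426). Atp5c1, the gamma subunit that forms the rotating shaft of ATP synthase, lay at 10.63, 10.77 and 11.17 in sleeping and 10.39, 10.59 and 10.85 in deprived mice (difference -0.26, SE 0.053, limma adjusted p = 0.000561). Ndufc2, an accessory subunit of complex I, lay at 12.07, 12.15 and 12.25 against 11.90, 12.00 and 12.18 (difference -0.14, SE 0.034, limma adjusted p = 0.00261). Both sets of groups overlapped, with the sleeping median higher. The other called members were Ndufb9 of complex I (-0.38, limma adjusted p = 0.00664) and Atp5h, the d subunit of the ATP synthase stalk (-0.16, limma adjusted p = 0.00856). Of the other 3 probe sets of Atp5h, 1 passed (-0.17, limma adjusted p = 0.00727) and the others did not (-0.20 and -0.12, limma adjusted p = 0.0235 and 0.216). Without the 16 arrays 4 members passed at 3 h: Sdhd, Ndufc2, Ndufb9 and Ndufb4 (-0.22), an accessory subunit of complex I.

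With 1 mouse left out at a time, arrays 41, 44, 45, 59, 67, 70 and 76 each left 3 calls at 3 h, and arrays 57, 68 and 75 gave 9, 12 and 8. Leaving out arrays 59 and 76 together, the highest mice of those asleep for 3 h, was chosen after seeing the data. Without both, 0 members passed at 3 h in the same limma fit, with adjusted p of 0.0132 for Sdhd, 0.0141 for Atp5c1, 0.0185 for Ndufc2, 0.147 for Atp5h and 0.166 for Ndufb9, and the median of the 81 was -0.055 with 66 below 0. All 9 brown fat genes were also lower with deprivation at 3 h (median -0.997), as were 15 of 15 cardiac genes (-0.38), 11 of 12 skeletal muscle genes (-1.13), 6 of 7 white fat genes (-0.45) and 10 of 10 liver genes (-1.89), none of them past the threshold. Immune lists were lower too, with genes past it: 7 of 7 B cell genes fell (median -0.95), as did 3 of 7 neutrophil genes (Retnlg by 1.31, Csf3r by 0.83 and S100a8 by 0.70) and 1 of 7 natural killer cell genes (Klrb1c by 0.57), and the T cell list had 0 of 7 past it in limma (median -0.46). Over all hours 7 B cell, 5 natural killer cell, 3 T cell genes and 1 neutrophil gene fell. The level of the members correlated with these lists at 0.25 (B cells), 0.19 (neutrophils), 0.17 (T cells) and -0.04 (natural killer cells). The endothelial gene Pecam1 (0.11) and the alveolar type 1 gene Rtkn2 (0.21) rose at 3 h. The median of the 8 alveolar type 2 genes was 0.000. Their part in the result was not tested.

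Further subunits of each complex, most of them core subunits, were chosen for naming, and none of these passed at 3 h. Sdhd and Atp5c1, given above, did pass. The flavoprotein subunit Ndufv1 of complex I differed by -0.32 (limma adjusted p = 0.0227), the iron-sulfur subunit Ndufs1 by -0.23, the flavoprotein Sdha of complex II by -0.16 and its iron-sulfur partner Sdhb by -0.29. Uqcrc1, a core protein of complex III, differed by -0.31 (limma adjusted p = 0.0182) and the Rieske protein Uqcrfs1 by -0.22. For Cox5a the difference was -0.27, for Atp5a1, the alpha subunit, -0.14, and for Atp5b, the catalytic beta subunit, -0.05. The adjusted p of the values given without one lay at or above 0.061.

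At 6 h 0 members passed in the limma fit, against 0.0591% of all probe sets. An unadjusted p under 0.05 was found for 18, 15 of them lower with deprivation, against 14.9% of all genes. Without the 16 arrays Ndufa2 passed (0.26, limma adjusted p = 0.00743). At 9 h 1 member passed, Atp5g2, against 1.41% of all probe sets called lower. Atp5g2 is a gene for the c subunit, which builds the membrane ring of ATP synthase. It lay at 11.01, 11.17 and 11.58 in sleeping and at 10.79, 10.91 and 11.22 in deprived mice, with 11.16, 11.31 and 11.42 at baseline. The groups overlapped, with the deprived mice lowest (difference -0.29, SE 0.071, limma adjusted p = 0.00661). Its other 2 probe sets were called as well (-0.26 and -0.28, limma adjusted p = 0.00865 and 0.00722). Any of 8 mice left out gave 0 members at 9 h (arrays 1, 2, 3, 4, 5, 14, 29 and 30). With the 16 arrays left out, 3 members passed, Atp5g2 and, higher with deprivation, Ndufa2 (0.23) and Ndufb2 of complex I (0.36). The other genes for the same c subunit differed by -0.23 (Atp5g1) and -0.08 (Atp5g3) at 9 h and did not pass. At 12 h 0 members passed, against 0.0816% of all probe sets. An unadjusted p under 0.05 was found for 4, all higher with deprivation, against 9.49% of all genes.

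The muscle and brown fat forms of complex IV had the widest ranges. Cox7a1 lay at 8.64, 9.94 and 11.88 in mice asleep for 3 h and at 8.41, 9.17 and 10.40 in mice deprived for 3 h. For Cox8b these values were 7.79, 8.90 and 11.47 against 7.56, 8.27 and 10.06. Sleeping and deprived mice overlapped over most of their range, and the highest value of each gene was array 76. The 3 h differences were -0.75 for Cox7a1 (SE 0.35, limma adjusted p = 0.153), -0.66 for Cox8b (SE 0.42, limma adjusted p = 0.33) and -0.42 for Cox6a2 (SE 0.20, limma adjusted p = 0.159). Their general counterparts differed by -0.19 (Cox7a2), -0.06 (Cox8a) and -0.23 (Cox6a1), and none of these passed. Nor did Cox4i1 (-0.21), its lung counterpart Cox4i2 (-0.06), Cox6b1 (-0.18), Cox6b2 (-0.04), Cox7b (-0.14), Cox7b2 (-0.05), Cox8c (0.04), Ndufa4 (-0.13) and Ndufa4l2 (-0.10) at 3 h. At 6 h Cox6a2 differed by 0.38, while the cardiac genes had a median of 0.29 with 15 of 15 above 0. Cox8b differed by -0.48 at that hour, while the brown fat genes had a median of -1.06 with 8 of 9 below 0. At 12 h Cox8b differed by 0.41 and the brown fat genes by 0.57 in the median.

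Across the 78 mice the level of each of these subunits was set against 3 marker lists, 9 relations in all. Cox8b correlated with brown fat at r = 0.88 and rho = 0.82, with cardiac muscle at 0.76 and 0.78, and with skeletal muscle at 0.55 and 0.57. Cox7a1 correlated with brown fat at r = 0.83 and rho = 0.76, with cardiac muscle at 0.84 and 0.82, and with skeletal muscle at 0.54 and 0.52. The permutation p and its adjusted value over the 9 relations were 1e-05 for all of these, the smallest that 100000 permutations can give. Cox6a2 correlated most with cardiac muscle (r = 0.82, rho = 0.76, permutation p = 1e-05). Its r with brown fat was 0.46 (rho = 0.39, adjusted permutation p = 2e-05 and 0.00042) and with skeletal muscle 0.43 (rho = 0.38, adjusted permutation p = 8e-05 and 0.0007). Leaving out the 2 mice farthest from the median of each list gave r between 0.37 and 0.85. Within runs 1 to 4, Cox8b and brown fat correlated at 0.84, 0.92, 0.91 and 0.87, and Cox6a2 and cardiac muscle at 0.84, 0.69, 0.83 and 0.85. The relations with skeletal muscle did not hold in run 1, where r was 0.06 for Cox7a1, 0.07 for Cox8b and 0.19 for Cox6a2. Such relations were not particular to these 3 forms. With brown fat r was 0.83 for Ndufa10, 0.81 for Sdhb, 0.006 for Cox7a2l and -0.08 for Cox4i2. For the general forms Cox8a, Cox7a2 and Cox6a1 it was 0.73, 0.62 and 0.72 with brown fat, and 0.47, 0.45 and 0.50 with cardiac muscle. Atp5d had r = 0.76 with cardiac muscle.

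**Figure D4:**
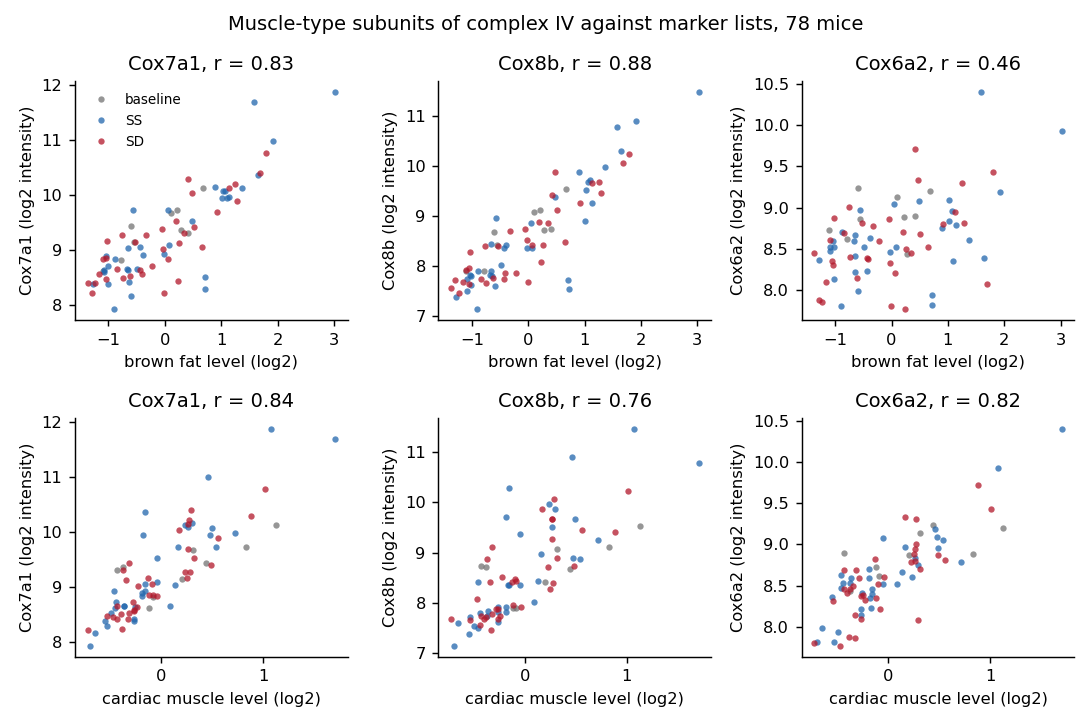
Log2 intensity of Cox7a1, Cox8b and Cox6a2 in each of the 78 mice against the level of the brown fat list (top) and of the cardiac muscle list (bottom), with Pearson's r in each panel. Cox8b follows the brown fat list most closely (r = 0.88) and Cox6a2 the cardiac list (r = 0.82) more than the brown fat list (r = 0.46).

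Among all 9 groups, 25 of 81 members (30.9%) differed by limma's F test. The share was alike over genes by their brightest probe set (5849 of 18820) and lower over all probe sets (25.1%). The members called were 11 of complex I, 3 of complex II (Sdhd, Sdhc and Sdha) and Uqcrc1 of complex III. The rest were 3 of complex IV (Cox7a2l, Cox6a2 and Cox5a) and 7 of complex V (Atp5g1, Atp5g2, Atp5e, Atp5k, Atp5c1, Atp5o and Atp5d). The smallest adjusted p belonged to Atp5g1 (2.07e-05), Ndufv1 (0.000117), Uqcrc1 (0.000177), Sdhd (0.000247) and Ndufa2 (0.000282). In complex III, Uqcrq (adjusted p = 0.0180) and Uqcr10 (0.0184) came next after Uqcrc1 in that limma test and did not pass. With the run as a random block 14 members differed, with arrays centred on their medians 14, and without the 16 arrays 31. Leaving out array 2 gave 16 members.

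Most calls against baseline came after 9 h of deprivation, when 11 members passed, 9 lower and 2 higher, against 12.9% of all probe sets. Among the 18820 genes, by brightest probe set, 2915 passed, a slightly larger share than of the members. Atp5g1, the first of the c subunit genes, lay at 10.99, 11.22 and 11.51 (lowest, median and highest) at baseline and at 10.30, 10.61 and 10.79 after 9 h of deprivation, without overlap. Its difference was -0.65 (SE 0.13, limma adjusted p = 0.000116), and its second probe set differed by -0.61. Mice asleep for 9 h lay between, at 10.29, 10.90 and 11.39, and overlapped both groups. Uqcrc1 lay at 10.77, 10.93 and 11.03 at baseline and at 10.24, 10.49 and 10.78 after 9 h of deprivation (difference -0.38, limma adjusted p = 0.00161), with a narrow overlap. Uqcrb, which binds ubiquinone in complex III, went the other way, from 10.84, 11.19 and 11.39 to 11.28, 11.55 and 11.78 (difference 0.38, limma adjusted p = 0.00148). The others lower were Atp5g2 (-0.34), Ndufv3 (-0.35), Ndufb10 (-0.27), Atp5k (-0.45), Cox6a2 (-0.71), Ndufa11 (-0.42, but -0.15 and not called by its second probe set) and Ndufa4l2 (-0.46), a relative of Ndufa4 known as a hypoxia-responsive gene. Ndufb3 was higher (0.26). All baseline mice were in run 3 and all 9 h mice in runs 1 and 2, so that group and run cannot be told apart. Leaving out array 2, 4, 39 or 40 lowered the number of members called in any of the 8 groups from 12 to between 5 and 7. In the fit without the 16 arrays Ndufa11 was not called and Cox6b2 was (-0.25).

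The 12th call against baseline was Cox7a2l, after 12 h of sleep, against 4.17% of all probe sets. Cox7a2l is a relative of Cox7a2 known as a factor that joins complexes III and IV into supercomplexes. It lay at 8.62, 8.78 and 9.13 at baseline and at 8.60, 8.77 and 8.87 after 6 h, 8.81, 9.03 and 9.37 after 9 h, and 8.84, 9.15 and 9.28 after 12 h of sleep. The early and late groups overlapped, with the medians of the late ones higher. The difference at 12 h was 0.32 (SE 0.078, limma adjusted p = 0.00305), and 0.33 with the run as a random block (limma adjusted p = 0.00545). Baseline and 12 h mice shared no run, so that block, with a correlation of 0.0217, could not separate group from run. By its second probe set the difference was 0.24 and did not pass (limma adjusted p = 0.0130). Against baseline, the other 6 groups had 0 members called by limma, against between 4 (3 h of sleep) and 1258 (12 h of deprivation) of the 35556 probe sets. Between 2 and 33 members had an unadjusted p under 0.05. The most came after 6 h of sleep (30 of 33 higher), against 16.1% of all genes. After 3 h of sleep 26 of 26 were higher, against 10.4% of all genes. The fewest, 2 after 6 h of deprivation, stood against 11.1%. The median difference of the members from baseline after 3 h of sleep was 0.13, with 77 of 81 above 0. Without arrays 59 and 76 it was 0.025, with 52 of 81 above 0. In the fit without the 16 arrays Cox7a2l was also called after 9 h of sleep (0.27) and after 12 h of deprivation (0.31). These comparisons share the same 9 baseline mice.

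Slopes over time, per 12 h from lights on, were called for 1 member in each state. Over sleep it was Cox7a2l (0.33 per 12 h, SE 0.069, limma adjusted p = 0.000629), against 5.44% of all probe sets. Its second probe set, which correlated with it at r = 0.50, had a slope of 0.20 (limma adjusted p = 0.0251). Over deprivation it was Atp5j, a coupling factor of the ATP synthase stalk (0.12 per 12 h, SE 0.025, limma adjusted p = 0.000725), against 8.41% of all probe sets. Atp5j lay at 11.34, 11.46 and 11.53 at baseline and at 11.48, 11.57 and 11.62 after 12 h of deprivation. With the run as a fixed term, which leaves only the slope within runs, neither passed: that of Cox7a2l was -0.036 (SE 0.14, limma adjusted p = 0.975) and that of Atp5j 0.082 (SE 0.053, limma adjusted p = 0.61). No other member passed in that fit. With the 16 arrays left out, Cox7a2 had a called slope over deprivation as well (0.22).

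Differences in spread between mice over the hours of sleep were called for 0 members by Bartlett's and the Brown-Forsythe test together, against 0.112% of all probe sets. Bartlett's test alone called 5 (Ndufa10, Ndufv3, Uqcrc1, Cox5a and Ndufs5), against 4.01% of all probe sets. An unadjusted Brown-Forsythe p under 0.05 was found for 3 members, against 3.02% of all probe sets. The median SD of the members was 0.25 in mice asleep for 3 h, against 0.14 for all genes, and 0.12 at baseline, as for all genes (0.12).

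Other genes of mitochondrial energy metabolism were counted in the same fits. Of all probe sets, 5.59% passed over all hours and 2.35% were called lower at 3 h. Over all hours 1512 of the 18820 genes passed by their brightest probe set, a larger share than of the probe sets. Over all hours the share that passed was 6.82% of the assembly factors, 8.70% of the tricarboxylic acid cycle list, 6.25% of the electron carriers, 8.33% of the carriers and uncoupling proteins, 4.05% of the mitochondrial and 4.55% of the cytosolic ribosomal genes. Of 44 assembly factors, 2 rose over all hours, Ndufaf4 (0.19) and Timmdc1 (0.14), which serve complex I, and 1 fell, Sdhaf1 (-0.14), which serves the iron-sulfur subunit of complex II. At 3 h Sdhaf1 fell by 0.31 and Atpaf1, an assembly factor of ATP synthase, by 0.16. Of 23 enzymes of the tricarboxylic acid cycle and of pyruvate dehydrogenase control, Suclg2, a subunit of succinyl-CoA ligase (-0.25), and the kinase Pdk1, which inhibits pyruvate dehydrogenase (-0.27), fell over all hours. At 3 h Pdk1 (-0.45), Pdk2 (-0.36), Suclg2 (-0.36) and the mitochondrial isocitrate dehydrogenase Idh2 (-0.20) fell, 17.4% of the list, and the median of the list was -0.20 with 21 of 23 below 0. Of 16 electron carriers and related proteins, Higd1a, a small hypoxia-induced protein of the inner membrane, rose (0.18 over all hours and 0.35 at 9 h).

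Of 12 carriers and uncoupling proteins, Slc25a27 rose (0.23 over all hours, 0.41 at 3 h) and Vdac2, a channel of the outer membrane, fell at 3 h (-0.16). None of 22 regulators of mitochondrial gene expression passed over all hours, and their median was 0.003. Among them Pprc1, a coactivator related to PGC-1alpha, fell over time in both states, by 0.33 per 12 h of sleep and by 0.43 per 12 h of deprivation, in fits without the run, which differed between baseline and the late mice. Of 74 mitochondrial ribosomal genes 1 rose (Mrps25) and 2 fell (Mrpl11 and Mrpl16) over all hours, with a median of -0.023, and 3 fell at 3 h (Mrpl16, Mrps10 and Mrpl23). Of 66 cytosolic ribosomal genes 3 fell, with a median of -0.040.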

How the data were processed

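RNA from the lungs of 78 mice was hybridised to arrays of the Mouse Gene 1.0 ST type. The authors background-corrected, quantile-normalised and summarised the probes by RMA in R and deposited log2 intensities in 1 table. The deposited values had lost their decimal point and are held as a score, so it was put back, after which they lay between 2.27 and 13.85. Tables of the authors' own comparisons were not used, and 0 columns belonged to no sample. The number of arrays limits the precision.

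All 35556 probe sets were fitted with limma 3.58.1 (lmFit, eBayes) in R 4.3.3, with Benjamini-Hochberg adjustment over all of them and a threshold of 0.01. The state comparison over all hours had no term for time and left out baseline. The other contrasts came from 1 fit of the 9 groups. limma stood in for the authors' permutation F test. Correlations used 100000 permutations (scipy 1.17.1). The fits were tested on simulated data. The labels do not say more about replicates than 1 mouse per array, and p-values measure the spread between these mice.

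Members and lists were chosen with earlier results of these data known. Members were named where they passed a test (by smallest p, by complex and hour), or as tissue forms. Others were named as further subunits of each complex, most of them core subunits, or as the brightest and dimmest of each complex. Pathway genes were named where they passed. Alternatives were a filter at a mean of 6, array weights, trend and robust variances, median centring, renewed quantile normalization, the run as a block (random for the 9 groups and baseline, with correlation 0.0217, and a fixed term otherwise), time as a factor, any probe set of a gene, and leaving out each mouse or the 16 arrays. Leaving out arrays 59 and 76 was chosen after seeing the data. Probe sets of a gene were kept apart, and levels were not compared between them. The 32 further probe sets correlated with the brightest at 0.11 to 1.00 (median 0.94), lowest for Ndufb5, and copies elsewhere in the genome could share their signal. Promoters are from RefSeq (GRCm38.p6).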

Additional observations from a re-analysis of the deposited data

Results flagged for a closer look

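In 207 checks of a group's highest and lowest mouse against the others, over 23 levels, 13 values stood apart, where chance gives about 1 in 20. Among deprived mice at 3 h, array 68 was the highest for Ndufa6 (10.07, others 9.67 to 9.85), Ndufc2 (12.18, others 11.90 to 12.03), Atp5h (11.49, others 11.24 to 11.35) and Uqcrb (11.71, others 10.93 to 11.29), and array 46 for Atp5g2 (11.51, others 11.01 to 11.24). Without array 68, 12 members were called at 3 h in place of 5. Among mice asleep for 9 h, array 28 was the highest for the level of the 81 members (0.15, others -0.21 to -0.040) and for Sdhd (10.57, others 10.14 to 10.33). The remaining values that stood apart were those of array 39 for Atp5h at baseline (11.11, lowest), array 20 for Atp5j after 9 h of deprivation (11.46, lowest), array 81 for Atp5j after 12 h of deprivation (11.48, lowest), array 6 for Ndufa6 after 12 h of deprivation (10.08, highest), array 76 for Cox7a2l after 3 h of sleep (9.18, highest) and array 18 for Uqcrc1 after 12 h of sleep (10.46, lowest). Arrays 20, 28, 46 and 81 are among the 16 whose label and profile disagreed.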

How the results depend on the processing

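The medians of the members' state differences, over all hours and at each hour, kept their direction under every alternative run. The median slope over sleep, -0.080, became 0.19 with the run as a fixed term, and the median slope over deprivation, 0.0054, ran from -0.063 to 0.10. With that term Cox7a2l's slope over sleep also turned, to -0.036. The number of members called moved more. Over all hours it was 3, and 1 with array weights, with median centring, without the 16 arrays and without arrays 59 and 76. At 3 h it was 5, and 3 with array weights, 2 with median centring and 0 without arrays 59 and 76. Without the 16 arrays it was 1 at 6 h (0 otherwise) and 3 at 9 h (1 otherwise), where it was 2 without arrays 59 and 76. The change over hours had 2 with array weights and 1 without the 16 arrays, in place of 0. Among the 9 groups 25 became 14 with median centring and 14 with the run as a random block. The number of members called against baseline in any of the 8 groups, 12, became 25 with array weights and 21 without arrays 59 and 76. Other alternatives lowered it. With the run as a random block, 1 member was called higher and 6 lower after 9 h of deprivation, in place of 2 and 9. With median centring these were 2 and 8. The slope over sleep had 1 call, and 2 with the filter, with array weights and with renewed quantile normalization, 3 with a common intercept and 0 with the run term. The slope over deprivation had 1 call, and 2 with the filter, 10 with array weights, 0 with median centring, 2 without the 16 arrays, 0 with the run term and 5 with a common intercept. Bartlett's test alone called 5 members for spread, in place of 0. The causes were not tested.

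With each mouse left out in turn, the calls ran from 1 to 4 over all hours, 3 to 12 at 3 h, 0 to 0 at 6 h, 0 to 1 at 9 h, 0 to 0 at 12 h, 0 to 1 for the change over hours, 16 to 34 among the 9 groups, 5 to 17 against baseline, 1 to 2 for the slope over sleep and 1 to 3 for that over deprivation. Over all hours, arrays 3, 13, 17, 19, 22, 28, 41, 43, 44, 45, 59, 60, 67, 70, 71, 72, 76 and 79 each left 1 call. At 3 h, arrays 41, 44, 45, 59, 67, 70 and 76 each left 3, and arrays 57, 68 and 75 gave 9, 12 and 8. For the change over hours, arrays 28 and 68 each gave 1. Arrays 28 and 36 gave 2 for the slope over sleep, and arrays 25 and 27 gave 3 and arrays 26, 36, 41, 52 and 74 gave 2 for that over deprivation. The medians ran from -0.079 to -0.056 over all hours, -0.19 to -0.10 at 3 h, -0.14 to -0.062 at 6 h, -0.039 to -0.0017 at 9 h, 0.0099 to 0.046 at 12 h, -0.094 to -0.052 for the slope over sleep and -0.012 to 0.023 for that over deprivation. No paired analysis was possible because the labels number arrays and give the groups no shared replicate numbers.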
